A study of Mus musculus with 7 samples.

Results

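The genes described here are 8 members of the voltage-gated sodium channel family, chosen by gene symbol alone: the pore-forming alpha subunits Scn1a, Scn2a1, Scn3a, Scn8a and Scn9a, and the accessory beta subunits Scn2b, Scn3b and Scn4b. All 8 were among the 27998 genes listed for each mouse. The series profiled nuclear RNA of single striatal nuclei of 7 mice, all male and of strain C57BL6/J. The mutant group (HttQ175/+, 4 mice) carried 1 copy of HttQ175, a knock-in form of the huntingtin gene with a lengthened CAG tract, used as a model of Huntington's disease and present in every cell, and the control group (WT, 3 mice) was wild type. HttQ175/+ replicate 1 was 15 months old and the other 6 mice were 14 months old, and no treatment is given for any of them. Each mouse gave 1 droplet library of 3' ends and is the replicate, so p-values measure the spread between these mice.

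A voltage-gated sodium channel consists of 1 large alpha subunit, which forms the pore, and of beta subunits, which are single-pass membrane proteins of the immunoglobulin fold that alter gating and surface expression. In neurons the channels gather at the axon initial segment, where they start the action potential. Beta subunits 2 and 4 are joined to the alpha subunit by a disulfide bond, whereas beta subunit 3 associates without one. In striatal spiny projection neurons (SPNs), the inhibitory output neurons of the direct pathway (dSPNs) and the indirect pathway (iSPNs), the cytoplasmic tail of beta 4 is known as the blocking particle of resurgent sodium current. Scn1a is known as the main alpha subunit of fast-spiking interneurons, and Scn9a is best known from peripheral sensory neurons.

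Of the 8 genes 4 lie in a cluster on chromosome 2 (mm10 build, GENCODE vM21 annotation). Scn3a spans bases 65457118 to 65567627, Scn2a1 (annotated as Scn2a) bases 65620771 to 65767447, Scn1a bases 66270778 to 66440840 and Scn9a bases 66480080 to 66634962. Scn1a and Scn9a are 39.2 kb apart. On chromosome 9, Scn2b (45117782 to 45130070) and Scn4b (45138395 to 45154152) lie on the same strand 8.32 kb apart, while Scn3b (40269217 to 40291618) lies elsewhere on that chromosome. Scn8a is on chromosome 15 (100869858 to 101045938). Promoter sequence, credited to RefSeq on GRCm38.p6, matched 6 of the 8 genes, and none is shown for Scn3a and Scn3b. In the 250 bases before the RefSeq start there were 23 CG dinucleotides for Scn4b, 5 for Scn9a and 1 for its neighbour Scn2b, where the median of 32851 promoters is 6. Of all promoters, 13.3%, 55.6% and 92.1% held at least that many. CG reads the same on both strands, and the count is a description of the letters in this window. The stretches below belong to the genes that differed between the genotypes, Scn4b and Scn9a, and to Scn2b, the nearest protein-coding gene to Scn4b, which was not called. They are shown 5′ to 3′ on the gene's own strand, only as far as they lie outside the GENCODE gene, with each CG in capitals. The Scn4b stretch holds 3 of the CG counted and the Scn2b stretch 0, since the rest of both windows lies inside the gene. They cover chr9:45138374-45138394 (plus strand), chr2:66634963-66635212 (minus strand) and chr9:45117626-45117781 (plus strand).
Scn4b: gtCGtcCGcagCGggcaagcc
Scn9a: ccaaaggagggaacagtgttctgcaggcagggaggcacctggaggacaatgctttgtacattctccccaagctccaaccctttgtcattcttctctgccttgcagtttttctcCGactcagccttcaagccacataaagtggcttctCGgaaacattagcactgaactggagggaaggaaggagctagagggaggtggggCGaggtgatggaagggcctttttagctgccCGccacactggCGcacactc
Scn2b: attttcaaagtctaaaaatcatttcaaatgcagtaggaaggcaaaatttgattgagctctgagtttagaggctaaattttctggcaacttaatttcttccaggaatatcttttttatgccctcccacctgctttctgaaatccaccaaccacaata

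The authors' annotation placed 4524 nuclei in 12 types, of which 1809 were dSPNs and 941 iSPNs. Libraries held 448 to 1239 nuclei per HttQ175/+ mouse and 338 to 558 per WT mouse, with medians of 1657 to 2385 and 2498 to 2599 unique molecular identifiers (UMIs) per nucleus. Among all libraries 3 cell barcodes were shared. Drd1 averaged 376 CPM (UMI counts brought to the same total in every nucleus, averaged over the nuclei of a mouse) in dSPNs and 27.5 CPM in iSPNs, and Penk 53.2 and 860 CPM. Pnoc was at 1.498 CPM in the nuclei annotated as Pnoc/Pvalb interneurons, where Pvalb was at 131 CPM and Pthlh at 191.8 CPM. Nuclei annotated as microglia held Csf1r at 473 CPM but also the SPN gene Pde10a at 1824 CPM, against 2669 CPM in dSPNs, and those annotated as endothelial cells held the astrocyte gene Slc1a2 at 1855 CPM. Genotypes were compared in the 5 types that held 10 or more nuclei in 3 or more mice per genotype: dSPNs, iSPNs, Sst interneurons, astrocytes and oligodendrocytes.

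A feature of the deposited values bears on these genes and is given before the results. Nuclei listed with exactly 1 UMI of a gene were missing for some genes in some mice. No nucleus of any mouse was listed with 1 UMI of Scn2a1, although 615 HttQ175/+ and 282 WT nuclei were listed with 2. Scn8a was alike, with 2 HttQ175/+ and 6 WT nuclei at 1 UMI against 505 and 225 at 2 UMIs. For Scn4b the mice were not alike. No WT nucleus and no nucleus of HttQ175/+ replicate 1 was listed with 1 UMI, whereas 194, 65 and 85 nuclei were in HttQ175/+ replicates 2, 3 and 4. Scn3a had 0.652 to 2.21 nuclei at 1 UMI per nucleus at 2 UMIs in HttQ175/+ mice and 0.198 to 0.34 in WT mice. In WT replicate 1, 1 nucleus was listed with 1 UMI of Scn2b and 27 with 2. Scn9a had such nuclei in every mouse, with 2.87 to 11.7 at 1 UMI per nucleus at 2 UMIs in HttQ175/+ mice and 3.83 to 7.0 in WT mice. Whether part of them was missing in some mice was not tested. No source used here gives the step behind the missing single UMIs. Between 16.9% and 32.4% of the genes with at least 20 nuclei at 2 UMIs had none at 1 UMI in a given mouse. The comparisons were therefore repeated with every single UMI counted as 0. Those values are given where they end a call or turn a direction, and for Scn4b in the 3 types where it was called and Scn3a in SPNs. Counting single UMIs as 0 removes more of a gene in shallower nuclei, so these values depend on depth. Median depth was 1647 to 2636 UMIs in HttQ175/+ and 2716 to 2816 UMIs in WT dSPNs, and 1547 to 2391 and 2398 to 2660 UMIs in iSPNs.

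**Figure D1:**
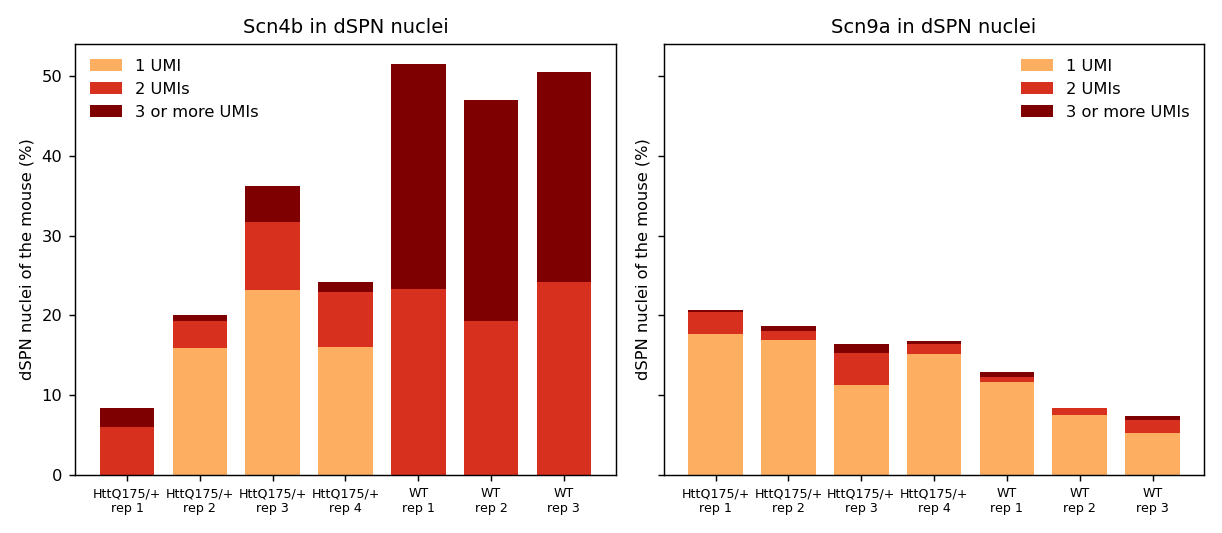
Percentage of dSPN nuclei of each mouse (y axis) listed with 1, 2 or at least 3 UMIs of Scn4b (left) and Scn9a (right), with 1 bar per mouse. Nuclei at 1 UMI of Scn4b are absent from HttQ175/+ replicate 1 and from all WT mice, and nuclei with at least 3 UMIs make up 0.786% to 4.52% in HttQ175/+ mice and 26.4% to 28.2% in WT mice.

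Scn4b, the beta 4 subunit, fell in dSPNs and iSPNs of HttQ175/+ mice, and Scn9a rose in dSPNs. In dSPNs 2 of the 8 genes were called at an adjusted p under 0.05 (limma, Benjamini-Hochberg over all genes of the type), where 3.93% of the 8796 genes tested were. Of the 8, 1 rose and 1 fell, beside 1.47% and 2.47% of all genes. In iSPNs 1 of 8 was called and it fell, where 2.29% of 5908 genes were called, 0.525% rising and 1.76% falling. The median log2 change of the 8 genes was -0.0937 in dSPNs and 0.0644 in iSPNs, beside 0.0312 and 0.00154 over all genes tested. In dSPNs the genotypes did not overlap for 3 of the 8 genes, Scn9a (HttQ175/+ above) and Scn4b and Scn8a (HttQ175/+ below). Over all dSPN genes 17.8% did not overlap, 12.6% with HttQ175/+ above and 5.26% below. In iSPNs Scn4b alone was apart, where 14.6% of genes were, 9.19% above and 5.4% below.

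Among the alpha subunits, Scn9a was the only one called in any type. In dSPNs it was at 103.4, 122.4, 82.0 and 86.4 CPM in HttQ175/+ replicates 1 to 4, against 49.5, 38.1 and 36.4 CPM in WT replicates 1 to 3. All HttQ175/+ mice lay above all WT mice. The means were 98.6 ± 18.4 CPM in HttQ175/+ mice and 41.3 ± 7.16 CPM in WT mice (SD, n = 4 and 3), a log2 change of 1.07 ± 0.21 (SE, adjusted p = 0.00917). These levels rest on 281 UMIs in HttQ175/+ and 58 UMIs in WT dSPNs. The share of dSPN nuclei with an Scn9a UMI was 18.2% ± 1.96 in HttQ175/+ mice and 9.55% ± 2.94 in WT mice, and 9.14% ± 2.18 and 3.12% ± 2.09 after every nucleus was thinned to 1000 UMIs. In astrocytes the thinned share was 3.33% ± 1.71 in HttQ175/+ mice and 0.725% ± 1.26 in WT mice. Scn9a was at 10.2 to 53.4 CPM in HttQ175/+ and 0 to 8.79 CPM in WT astrocytes. In oligodendrocytes the thinned share was 5.15% ± 2.33 in HttQ175/+ mice and 0.952% ± 1.65 in WT mice. The oligodendrocyte level was 11.7% to 78.3% of the higher SPN level of the same mouse in HttQ175/+ mice and 15.8% to 26.8% in WT mice. The part of background transcripts in the dSPN level was not tested. Other marker lists moved with genotype in dSPNs: the 5 eccentric SPN markers summed to 81.8 to 120 CPM in HttQ175/+ mice and 34.1 to 60.8 CPM in WT mice, the 4 neuroblast markers to 107 to 157 and 63.2 to 72.4 CPM, and the 5 cortical neuron markers to 19.8 to 39.5 and 3.12 to 10.1 CPM. The 4 cholinergic markers summed to 0 to 12.98 CPM in HttQ175/+ and 1.16 to 3.34 CPM in WT dSPNs, with Lhx8 at 0. The part of these in the Scn9a difference was not tested. With single UMIs counted as 0 the dSPN log2 change was 1.10 ± 0.49 and missed the threshold (adjusted p = 0.224), and without HttQ175/+ replicate 2 and WT replicate 2 together it was 0.89 ± 0.24 (adjusted p = 0.0637).

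In iSPNs, Scn9a was at 105.9, 68.8, 83.0 and 54.3 CPM in HttQ175/+ mice, against 23.9, 55.6 and 12.9 CPM in WT mice. HttQ175/+ replicate 4 lay just below WT replicate 2, so the genotypes overlapped. The log2 change of 1.17 ± 0.34 was of the size seen in dSPNs but missed the threshold (adjusted p = 0.0952), and it passed without WT replicate 2 (1.62 ± 0.32, adjusted p = 0.0170), without both replicates 2 (1.63 ± 0.37, adjusted p = 0.0352) and with array weights (1.34 ± 0.33, adjusted p = 0.0356). A test of the difference between the dSPN and iSPN changes gave -0.22 ± 0.38 (adjusted p = 0.947). In oligodendrocytes 48 Scn9a UMIs were counted in HttQ175/+ and 4 in WT nuclei, 4.18 times as many relative to all UMIs of the type (95% counting interval 1.53 to 16.0). The gene was too low there for the fit, and HttQ175/+ replicate 3, at 9.68 CPM, lay within the WT range of 8.66 to 9.75 CPM. An unnamed antisense gene, Gm13629, overlaps Scn9a on the other strand. It held 36 UMIs in HttQ175/+ and 14 in WT dSPNs, and no source used here says whether counting used strand, so reads of the pair may not be separable. The other tested gene within 250 kb of Scn9a besides Scn1a, Ttc21b, changed by 0.22 ± 0.20 (adjusted p = 0.632) in dSPNs.

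Scn8a encodes the main alpha subunit of the mature axon initial segment. In dSPNs it was at 342.7, 330.9, 337.2 and 356.6 CPM in HttQ175/+ mice, against 363.6, 365.8 and 394.5 CPM in WT mice. The 4 HttQ175/+ mice all lay below the WT mice, but the gap was small. The log2 change was -0.24 ± 0.13 and not called (adjusted p = 0.375), with a 95% interval from -0.53 to 0.04. In iSPNs Scn8a averaged 386 ± 93.0 CPM in HttQ175/+ mice and 324 ± 66.7 CPM in WT mice, with overlapping mice (0.13 ± 0.21, adjusted p = 0.847). In oligodendrocytes, where 11.4% of genes did not overlap (6.82% with HttQ175/+ above, 4.58% below), the HttQ175/+ mice were at 232.0, 183.4, 102.8 and 184.5 CPM and the WT mice at 98.6, 93.8 and 98.1 CPM. All HttQ175/+ mice were higher there, by 0.70 ± 0.31 on the log2 scale, which was not called (adjusted p = 0.317).

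Scn2a1 encodes an alpha subunit of unmyelinated axons and of the initial segment of principal neurons. In dSPNs it was at 623.1, 511.6, 738.3 and 638.0 CPM in HttQ175/+ mice, against 531.7, 733.7 and 597.4 CPM in WT mice. The genotypes covered the same range. Its log2 change was -0.098 ± 0.15 in dSPNs (adjusted p = 0.798, 95% interval -0.42 to 0.23) and 0.00477 ± 0.17 in iSPNs (adjusted p = 0.996, interval -0.35 to 0.36). Scn1a averaged 350 ± 74.3 CPM in HttQ175/+ and 341 ± 46.4 CPM in WT dSPNs (-0.090 ± 0.18, adjusted p = 0.849), and 348 ± 45.6 and 329 ± 55.6 CPM in iSPNs (-0.026 ± 0.18, adjusted p = 0.976). Scn3a, an alpha subunit best known from the embryonic brain, averaged 358 ± 42.1 CPM in HttQ175/+ and 368 ± 9.54 CPM in WT dSPNs (-0.16 ± 0.14, adjusted p = 0.620). With single UMIs counted as 0, which were listed more often for Scn3a in HttQ175/+ mice, the dSPN change was -0.46 ± 0.21 and not called (adjusted p = 0.223). Unthinned, the share of dSPN nuclei with at least 2 Scn3a UMIs was 25.2% ± 6.94 in HttQ175/+ mice and 37.7% ± 1.67 in WT mice (exact two-sided permutation p = 0.0571). That share depends on depth. With nuclei thinned to the same depth, it was 7.51% ± 2.28 in HttQ175/+ mice and 6.52% ± 2.74 in WT mice (exact permutation p = 0.6). In iSPNs the gene averaged 386 ± 114 CPM in HttQ175/+ mice and 343 ± 112 CPM in WT mice (0.060 ± 0.25, adjusted p = 0.95), with -0.31 ± 0.25 when single UMIs were counted as 0 (adjusted p = 0.604). None of these alpha subunits was called in a tested type. Among their 95% intervals in SPNs, that of Scn3a in iSPNs had both the lowest and the highest bound, -0.47 and 0.59.

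**Figure D2:**
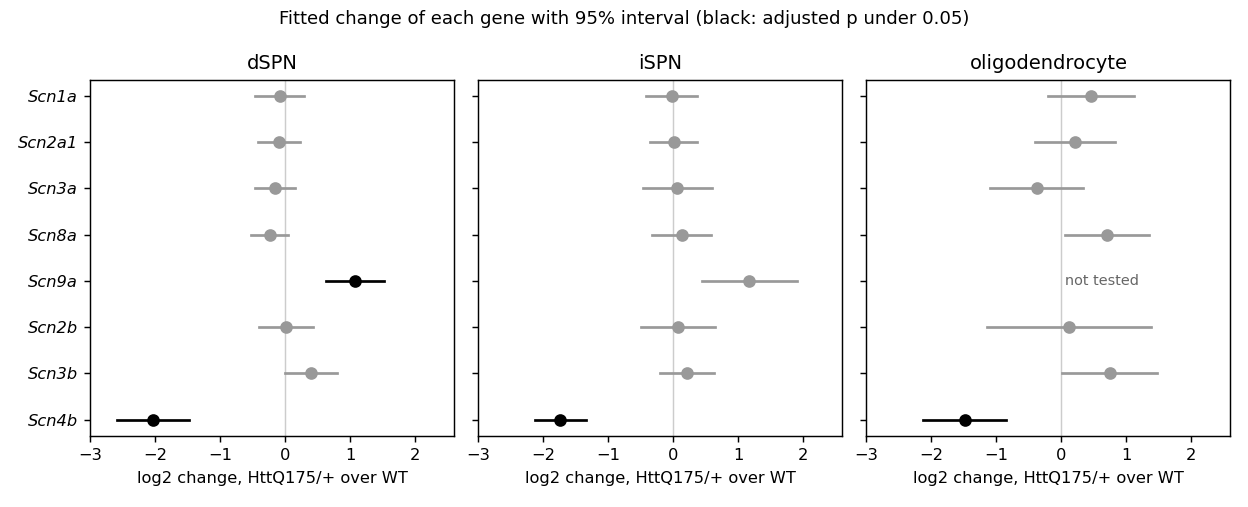
Fitted log2 change of HttQ175/+ over WT (x axis) with its 95% interval for each of the 8 genes (rows) in dSPNs, iSPNs and oligodendrocytes, from 4 HttQ175/+ and 3 WT mice. Black marks an adjusted p under 0.05: Scn4b in all 3 types (-2.04, -1.74 and -1.49) and Scn9a in dSPNs (1.07).

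Among the beta subunits, Scn4b was called in all 3 of these types and the others in none. In dSPNs Scn4b was at 74.3, 151.6, 208.0 and 169.1 CPM in HttQ175/+ mice, against 540.4, 515.1 and 588.8 CPM in WT mice. The highest HttQ175/+ mouse was far below the lowest WT mouse. The means were 150.7 ± 56.2 CPM in HttQ175/+ mice and 548.1 ± 37.4 CPM in WT mice (SD, n = 4 and 3), a log2 change of -2.04 ± 0.26 (adjusted p = 0.000669). In iSPNs the gene was at 153.7, 194.5, 193.9 and 187.9 CPM in HttQ175/+ mice, against 607.6, 514.7 and 620.2 CPM in WT mice. Again the groups were well apart, by -1.74 ± 0.18 on the log2 scale (adjusted p = 9.71e-05). HttQ175/+ replicate 1, the 15-month-old mouse, was the lowest in both types, and without it the dSPN change was -1.75. With single UMIs counted as 0 in every mouse the changes were -2.86 ± 0.24 in dSPNs and -2.46 ± 0.27 in iSPNs. SPN markers fell with it: the 6 together summed to 3648 to 4180 CPM in HttQ175/+ and 8579 to 9081 CPM in WT dSPNs, where all 6 fell, and to 4316 to 4952 and 9837 to 9928 CPM in iSPNs, where 5 of 6 fell. Their part in the Scn4b result was not tested.

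The fall of Scn4b also showed in how many nuclei carried its UMIs. After thinning to 1000 UMIs per nucleus, 4.36%, 13.6%, 18.1% and 14.8% of dSPN nuclei held at least 1 Scn4b UMI in HttQ175/+ mice, against 34.4%, 36.1% and 37.2% in WT mice. The groups did not overlap and differed by -23.2 percentage points, with an exact two-sided permutation p = 0.0286, the smallest that 35 splits of 7 mice can give. In iSPNs the share was 14.8% ± 3.28 in HttQ175/+ mice and 33.2% ± 5.06 in WT mice, with the same exact permutation p = 0.0286. Adjusted over these 2 tests, both stayed at 0.0286. Unthinned, 22.2% ± 11.5 of dSPN nuclei in HttQ175/+ mice and 49.8% ± 2.37 in WT mice held a UMI (exact permutation p = 0.0571). Single UMIs were missing in 4 of the 7 mice. The share with at least 2 UMIs does not use them, but unthinned it still depends on depth. Unthinned, that share was 8.45% ± 3.62 in HttQ175/+ and 49.8% ± 2.37 in WT dSPNs, and 10.97% ± 3.72 and 46.99% ± 5.36 in iSPNs. Thinned, it was 1.92% ± 0.83 and 14.83% ± 2.05 in dSPNs, and 3.155% ± 2.62 and 16.97% ± 3.02 in iSPNs. Astrocytes, which should lack Scn4b, gave thinned shares of 7.16% ± 3.95 in HttQ175/+ mice and 4.95% ± 1.51 in WT mice. In HttQ175/+ replicate 1, the thinned dSPN share of 4.36% was below the 5.26% of the astrocytes of that mouse. That astrocyte share rests on 3 of 57 nuclei. Unthinned, the order was reversed, with 8.45% in its dSPNs and 7.02% in its astrocytes. The Scn4b level of that mouse was also higher in dSPNs, at 74.3 CPM against 46.3 CPM in astrocytes. Median depth was 1647 to 2636 UMIs in HttQ175/+ and 2716 to 2816 UMIs in WT dSPNs, and 1410.5 to 2383 and 1339 to 1472.5 UMIs in astrocytes.

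Oligodendrocytes also held Scn4b UMIs. The gene was at 87.9, 85.5, 50.2 and 84.2 CPM in HttQ175/+ mice, against 244.6, 317.8 and 166.2 CPM in WT mice. The groups were apart, and the log2 change of -1.49 ± 0.31 was called (adjusted p = 0.0227), as were 0.658% of the 3650 genes tested in that type (0.11% rose and 0.548% fell). The call was lost on leaving out any 1 mouse other than HttQ175/+ replicate 3, with adjusted p values of 0.0537 to 0.119, and with nuclei thinned (-1.40, adjusted p = 0.118) or with no filter on low genes (adjusted p = 0.0928). With single UMIs counted as 0 the change was -2.51 ± 0.49 (adjusted p = 0.00117). The oligodendrocyte level was 24.1% to 57.2% of the higher SPN level of the same mouse in HttQ175/+ mice and 26.8% to 61.7% in WT mice. Summed over the 6 SPN markers, these nuclei held 1307 to 2520 CPM in HttQ175/+ mice and 2697 to 3336 CPM in WT mice, without overlap. Of single SPN genes, Penk was at 59.9 to 142 CPM in HttQ175/+ mice and 196 to 297 CPM in WT mice. Pde10a, at 558 to 1073 CPM in HttQ175/+ mice and 985 to 1377 CPM in WT mice, and Drd1, at 56.6 to 136 and 62.4 to 244 CPM, overlapped. Whether SPN transcripts in these nuclei account for their Scn4b was not tested. The 6 oligodendrocyte markers summed to 9814 to 21070 CPM in HttQ175/+ and 24710 to 28560 CPM in WT oligodendrocytes.

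**Figure D3:**
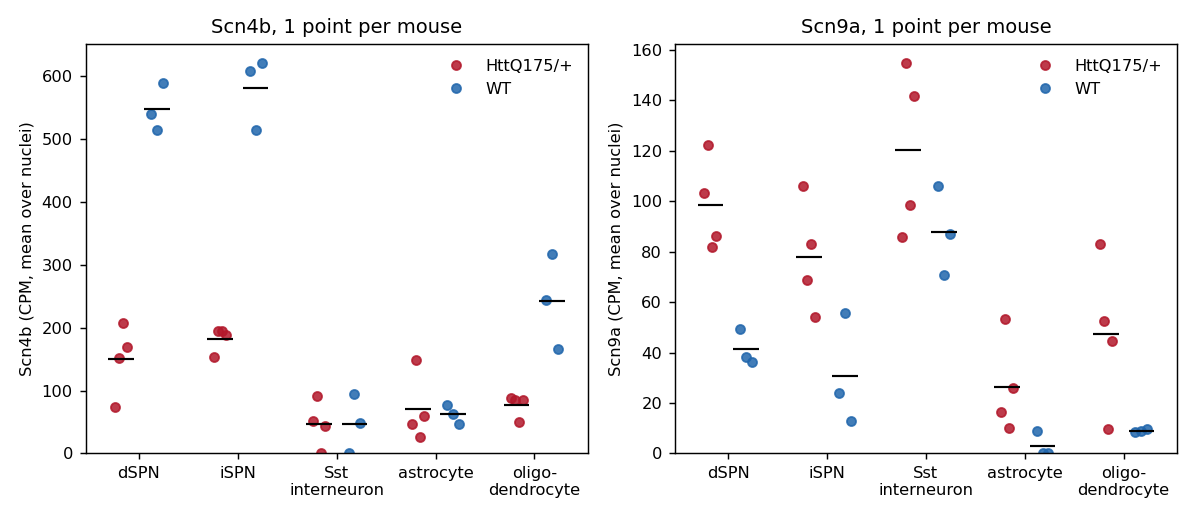
Level of Scn4b (left) and Scn9a (right) in CPM (y axis, mean over the nuclei of a mouse) in the 5 tested types, with 1 point per mouse and a line at the mean of the 4 HttQ175/+ or 3 WT mice. Scn4b of HttQ175/+ mice lies below every WT mouse in dSPNs, iSPNs and oligodendrocytes. Scn9a of HttQ175/+ mice lies above every WT mouse in dSPNs and, at low levels, in astrocytes (10.2 to 53.4 CPM against 0 to 8.79 CPM).

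In types outside the tests, Scn4b was lower in HttQ175/+ nuclei in several and at or near the detection floor in others. In unassigned SPNs and microglia no WT mouse held 10 nuclei, so levels were not compared. HttQ175/+ mice with at least 10 nuclei were at 38.5 to 328 CPM and 41.4 to 214 CPM. WT nuclei with an Scn4b UMI were 2 of 6, 0 of 3 and 0 of 2 in unassigned SPNs, and 0 of 1, 3 of 7 and 0 of 5 in microglia. Eccentric SPNs, a minor SPN class, averaged 63.0 ± 24.0 CPM in 4 HttQ175/+ mice and 166 ± 46.0 CPM in the 2 WT mice with at least 10 nuclei. Pooled UMIs of that type gave 0.365 times the WT level (counting interval 0.176 to 0.749). Oligodendrocyte progenitors (annotated as polydendrocytes) held 1 Scn4b UMI in HttQ175/+ and 8 in WT nuclei, and endothelial cells 6 and 12, or 0.176 times the WT level (interval 0.0543 to 0.508). The WT endothelial UMIs lay in 3 of 14, 0 of 8 and 2 of 7 nuclei of replicates 1 to 3. Sst interneurons, a tested type in which Scn4b did not pass the filter, averaged 46.9 ± 37.7 CPM in HttQ175/+ mice and 47.4 ± 47.1 CPM in WT mice. In cholinergic (Chat) interneurons 1 Scn4b UMI was found among 191506 UMIs of HttQ175/+ nuclei and 0 among 18409 UMIs of WT nuclei, which allows up to 163 CPM. Intervals and floors cover counting error only.

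Scn2b encodes beta 2, the closest relative and genomic neighbour of Scn4b. In dSPNs it was at 111.3, 114.3, 119.0 and 126.9 CPM in HttQ175/+ mice, against 79.9, 146.4 and 107.1 CPM in WT mice. The WT mice spanned both sides of the HttQ175/+ mice, and the log2 change was 0.011 ± 0.20 (adjusted p = 0.987), with 0.069 ± 0.27 in iSPNs (adjusted p = 0.945). Counting single UMIs as 0, which depends on depth, turned these to -0.74 ± 0.34 and -0.93 ± 0.43. Neither was called (adjusted p = 0.249 and 0.238). With nuclei thinned to the same depth, 0.51% ± 0.39 of HttQ175/+ and 2.32% ± 0.42 of WT dSPN nuclei held at least 2 Scn2b UMIs. The groups differed there (exact permutation p = 0.0286, not adjusted). In iSPNs that share was 0.40% ± 0.47 and 0.98% ± 0.95 (exact permutation p = 0.371). In Sst interneurons the HttQ175/+ mice were at 130.4, 159.6, 144.0 and 122.5 CPM and the WT mice at 0, 114.6 and 75.4 CPM. The WT mice were all below, but the change of 1.27 ± 0.54 was not called (adjusted p = 0.642), and 7.88% of genes did not overlap in that type (3.96% with HttQ175/+ above, 3.92% below). WT replicate 1, at 0, is the mouse in which single UMIs of Scn2b were missing, and without it the change was 0.49. Of the 4 tested genes within 250 kb of Scn4b, Scn2b included, none was called in dSPNs.

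Scn3b, the beta 3 subunit, was at 266.0, 258.9, 277.1 and 203.8 CPM in HttQ175/+ dSPNs, against 197.8, 211.8 and 127.7 CPM in WT dSPNs. Only HttQ175/+ replicate 4 fell within the WT range. The log2 change of 0.39 ± 0.19 was not called (adjusted p = 0.292, 95% interval -0.00750 to 0.79). WT replicate 3, the lowest, had 0.886 nuclei at 1 UMI per nucleus at 2, below the 3.17 and 4.0 of the other WT mice, and without that mouse the change was 0.19. In iSPNs Scn3b averaged 274 ± 46.9 CPM in HttQ175/+ mice and 218 ± 39.9 CPM in WT mice (0.21 ± 0.20, adjusted p = 0.696). In oligodendrocytes it averaged 121 ± 47.3 CPM in HttQ175/+ mice and 65.0 ± 26.2 CPM in WT mice (0.74 ± 0.36, adjusted p = 0.366).

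No gene was called in Sst interneurons or astrocytes (0.0% of 2296 and of 1873 genes), where 176 and 250 genes had an unadjusted p under 0.05 in limma. In astrocytes 11.8% of the 1873 genes tested did not overlap, 5.71% with HttQ175/+ above and 6.09% below, and the sodium channel gene tested there overlapped. Of the 8 sodium channel genes, 5 passed the filter on low counts in Sst interneurons, 1 in astrocytes and 7 in oligodendrocytes. The astrocyte gene was Scn2a1, at 134 ± 82.4 CPM in HttQ175/+ mice and 122 ± 75.3 CPM in WT mice (-0.038 ± 0.51, adjusted p = 0.986). Of the members too low for that fit, Scn3a, Scn8a, Scn2b and Scn4b overlapped in astrocytes. Scn1a (29.8 to 99.4 against 17.4 to 29.0 CPM), Scn3b (34.6 to 127 against 21.3 to 34.3 CPM) and Scn9a (10.2 to 53.4 against 0 to 8.79 CPM) were higher in every HttQ175/+ mouse. In Sst interneurons Scn1a averaged 517 ± 93.3 CPM in HttQ175/+ mice and 414 ± 177 CPM in WT mice, with overlapping mice (0.41 ± 0.27, adjusted p = 0.760).

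No sodium channel gene was called between the SPN classes. A fit with the mouse as a block compared dSPNs with iSPNs over 8699 genes and called 56 genes (0.644%) in HttQ175/+ mice, 100 (1.15%) in WT mice and 163 (1.87%) over both genotypes. Scn2a1 was higher in dSPNs than in iSPNs in all 7 mice, by 0.24 ± 0.070 on the log2 scale, which just missed the threshold (adjusted p = 0.0804). Scn9a was higher in dSPNs by 0.47 ± 0.19 (adjusted p = 0.311), and for Scn4b the difference was -0.20 ± 0.10 (adjusted p = 0.500). Without WT replicate 2 the Scn9a difference was 0.74 and was called. The genotype effect itself was compared between the classes by the interaction term, which called 1 gene in all (0.0115%). For Scn4b that difference was -0.28 ± 0.21 (adjusted p = 0.880) and for Scn8a -0.38 ± 0.19 (adjusted p = 0.796).

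**Figure D4:**
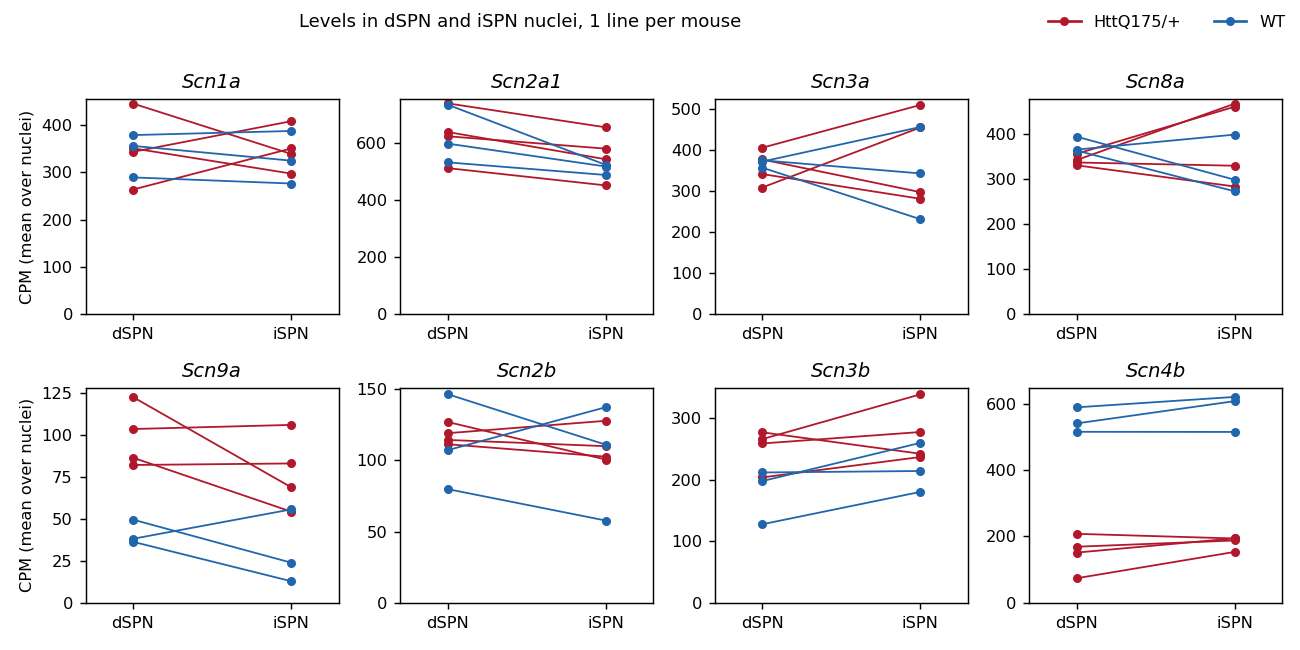
Level of each gene in CPM (y axis) in dSPNs and iSPNs, with 1 line per mouse, HttQ175/+ mice in red and WT mice in blue. The lines of Scn2a1 run down from dSPN to iSPN in all 7 mice, and those of Scn4b form a band of 4 HttQ175/+ mice at 74.3 to 208.0 CPM and a band of 3 WT mice at 514.7 to 620.2 CPM.

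Across the annotated types, levels of a gene are compared between types only, since counts of different genes are not per length. A mouse counted for a type with at least 10 nuclei, which held for all 12 types in HttQ175/+ mice and for 9 types in at least 1 WT mouse, 7 of them in 2 or more, which are those ordered for WT. Scn1a was highest in Pnoc/Pvalb interneurons, at 605 to 943 CPM in HttQ175/+ mice and 818 to 995 CPM in WT mice, above the range of every other type ordered in each genotype. It was lowest in astrocytes, at 29.8 to 99.4 CPM in HttQ175/+ mice and 17.4 to 29.0 CPM in WT mice. In between, Sst interneurons, eccentric SPNs, dSPNs and iSPNs were not separated, with overlapping ranges from 1 type to the next in the order.

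Scn9a had its highest level in Chat interneurons, at 211.7, 288.2 and 262.9 CPM in the 3 HttQ175/+ mice with at least 10 such nuclei. This lay above the 85.7 to 154.6 CPM of Sst interneurons, the next type in the order. WT mice gave 3 Scn9a UMIs among their 6 Chat nuclei, 163 CPM, and the pooled ratio of 1.57 had a counting interval from 0.507 to 7.88. In WT mice with at least 10 nuclei the order began with Sst interneurons at 70.8 to 106 CPM, apart from dSPNs at 36.4 to 49.5 CPM. Pnoc/Pvalb interneurons held 3 Scn9a UMIs in HttQ175/+ and 1 in WT nuclei, the last of the 12 types in HttQ175/+ mice and the fourth of 7 in WT mice, where astrocytes were last.

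Scn4b was highest in WT mice in iSPNs (514.7 to 620.2 CPM) and dSPNs (515.1 to 588.8 CPM), which overlapped, and both lay above oligodendrocytes (166 to 318 CPM). In HttQ175/+ mice the same order had no gap, since iSPNs (154 to 194 CPM), dSPNs (74.3 to 208 CPM), unassigned SPNs (38.5 to 328 CPM) and microglia (41.4 to 214 CPM) overlapped. Scn8a was highest in WT Pnoc/Pvalb interneurons, at 574 and 602 CPM in the 2 WT mice counted, where the 3 HttQ175/+ mice had 399, 318 and 383 CPM. Pooled UMIs of that type gave 0.669 times the WT level (interval 0.477 to 0.940), and the type was not among the tested ones. With at least 5 nuclei per mouse accepted, Pnoc/Pvalb interneurons, eccentric SPNs, endothelial cells and oligodendrocyte progenitors could be fitted too, and no gene was called in any of them, while 27, 98, 13 and 30 genes had an unadjusted p under 0.05 in limma. Scn2a1, Scn3a, Scn2b and Scn3b were spread over the neuron types, with neighbours in the order that mostly overlapped. They were not confined to neurons. In HttQ175/+ mice microglia ranked 5 of 12 for Scn3a (272 CPM) and for Scn2b (116 CPM), 6 for Scn3b (200 CPM) and 10 for Scn2a1 (266 CPM). Nuclei annotated as microglia also held the SPN gene Pde10a. Scn3a and Scn3b were low in Pnoc/Pvalb interneurons relative to SPNs. Scn3a averaged 148 ± 67.3 CPM there in HttQ175/+ mice and 108 ± 55.9 CPM in WT mice, and Scn3b 81.9 ± 29.9 and 27.2 ± 11.2 CPM.

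**Figure D5:**
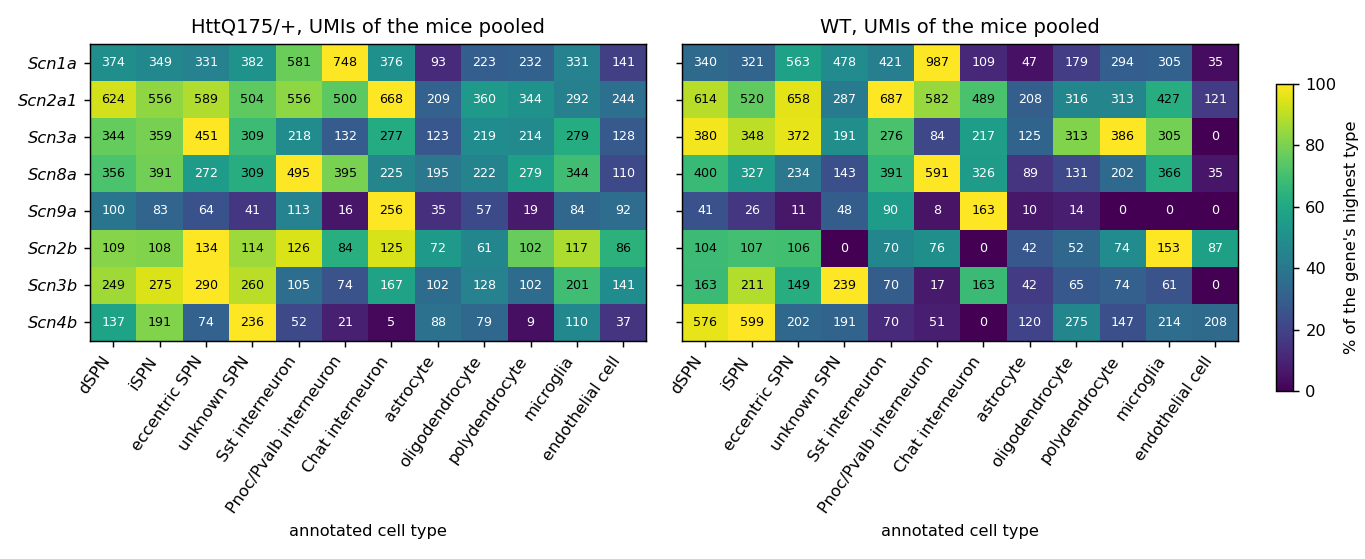
CPM of each gene from UMIs pooled over the mice of a genotype (number in each cell), in the 12 annotated types, coloured as a percentage of that gene's highest type in the genotype. Scn1a peaks in Pnoc/Pvalb interneurons (748 in HttQ175/+ and 987 in WT nuclei), Scn9a in Chat interneurons (256 and 163, the WT value from 3 UMIs) and Scn4b in WT iSPNs and dSPNs (599 and 576).

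By Pearson correlation of log2(CPM + 20) over the 12 types, a description without a test over types that share libraries, the genes most like Scn4b among 9708 included Ppp1r1b (r = 0.938), which encodes the SPN phosphoprotein DARPP-32, and Itgb1bp1 (0.936). For Scn9a they were Garnl3 (0.908), Gpr158 (0.884) and Grm8 (0.882). For Scn1a the first was Cacna1a (0.963), a calcium channel pore subunit, and for Scn8a Dnm1 (0.978), the synaptic dynamin. Nos1ap (0.928), Cyfip2 (0.951) and Trank1 (0.979) led for Scn3a, Scn2b and Scn3b. Scn4b was little like its neighbour Scn2b (0.246), and among the other members it was most like Scn3b (0.591).

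Genes that work with the channels were examined as lists. Of 15 channel partners and proteins of the axon initial segment, all tested in dSPNs, Nfasc fell and none rose, where 2.47% of all dSPN genes fell and 1.47% rose. Their median log2 change was 0.0153, beside 0.0312 over all genes. Nfasc, which encodes the adhesion protein neurofascin, averaged 60.4 ± 8.94 CPM in HttQ175/+ and 139 ± 13.5 CPM in WT dSPNs (-1.28 ± 0.19, adjusted p = 0.00167), with no overlap between the mice. Oligodendrocytes express Nfasc too, at 469 ± 179 CPM in HttQ175/+ and 562 ± 17.2 CPM in WT mice, while the 6 oligodendrocyte markers summed in dSPNs to 59.7 to 176 CPM in HttQ175/+ mice and 31.0 to 163 CPM in WT mice. Its partners Ank3 and Ank2, the ankyrins that anchor the channels, changed by -0.23 ± 0.13 (adjusted p = 0.388) and -0.31 ± 0.14 (adjusted p = 0.258). Nrcam, another adhesion protein of the segment, averaged 176 CPM in HttQ175/+ and 92.1 CPM in WT dSPNs without overlap, but was not called (0.88 ± 0.25, adjusted p = 0.0690).

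In iSPNs 13 of the 15 partners were tested and none was called, where 2.29% of all iSPN genes were. In oligodendrocytes 9 were tested and 1 rose, where 0.11% of all genes rose. There Sptbn4, beta IV spectrin of initial segments and nodes, rose to 255 ± 70.3 CPM in HttQ175/+ mice, against 88.3 ± 29.4 CPM in WT mice (1.37 ± 0.32, adjusted p = 0.0439). That call was lost on leaving out any mouse but HttQ175/+ replicate 3, with an adjusted p of up to 0.214, and without a filter on low genes, with summed UMIs, without doublets or with nuclei thinned (adjusted p = 0.0601 to 0.12). Of the 4 genes of the sodium leak channel complex, 4 were tested in dSPNs, 3 in iSPNs, 2 in Sst interneurons, 1 in astrocytes and 2 in oligodendrocytes. Of the 6 sodium pump subunits, 4 were tested in dSPNs, 4 in iSPNs, 4 in Sst interneurons, 3 in astrocytes and 5 in oligodendrocytes. None of those tested was called. Over all genes 3.93% were called in dSPNs, 2.29% in iSPNs, 0.658% in oligodendrocytes and 0.0% in the other types. In dSPNs the leak channel Nalcn averaged 107 ± 9.54 CPM in HttQ175/+ mice and 89.7 CPM in WT mice (0.13 ± 0.17, adjusted p = 0.772).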

How the data were processed

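Nuclei of flash-frozen striatum were isolated over an iodixanol barrier and made into Chromium 3' libraries of version 3 chemistry, per the labels' protocols. Tools named are Cell Ranger 3.0.2 and Seurat, with mm10 as the build, per the submitters' processing notes. The authors deposited natural log values, for which 1 was added to a gene's UMIs after scaling each nucleus to 10000. The deposited annotation supplied the other columns used, the type, library and genotype of each nucleus. No source used here gives how nuclei were filtered, how types were called or why single UMIs are missing. A deposited table of smoothed values was not used.

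The smallest step within a nucleus gave the worth of 1 UMI, from which UMIs were recovered, and 100% of 5824756 values above 0 were whole within 0.02. Per mouse and type, the linear values of nuclei were averaged to CPM. These were scaled with TMM factors and log2 transformed after adding what 2 UMIs are worth in the median mouse (3.67 CPM in dSPNs, 8.32 in iSPNs, 22.5 in Sst interneurons, 22.7 in astrocytes, 15.1 in oligodendrocytes), which understates changes of low genes. Printed CPM are before scaling. A gene was tested with a minimum of 15 UMIs over the mice and, in 3 mice, of 10 at the median total. The deposited unit is a log scale, so no count model was fitted, and limma 3.58.1 (limma-trend, R 4.3.3) was run with Benjamini-Hochberg adjustment over all genes of a type. The fits were tested on simulated sums of counts with no single UMIs missing. That test cannot show how the fits behave where single UMIs are missing or where nuclei are averaged. Shares of nuclei were compared with an exact permutation test over mice, and 95% intervals of ratios of pooled UMIs are exact (scipy 1.17.1). The floor for a count of 0 is 3 UMIs.

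The members and lists were chosen with earlier results of these data known, and the text names all members, the gene-list members past the threshold and genes most like the members. Some genes that these rules name are not reported here. Ttc21b, Ank2, Ank3, Nrcam and Nalcn, which did not pass, were chosen after their values were seen. Alternatives covered scaling, pseudocount, filter, summed UMIs, array weights, thinning to 1000 UMIs, each mouse left out, and 60 nuclei (1.33%, 0 to 31 per mouse) that Scrublet in scanpy 1.11.5 marked as doublets. The main comparisons kept all nuclei, these included.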

Additional observations from a re-analysis of the deposited data

Results flagged for a closer look

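Among the 4 HttQ175/+ mice, Scn4b of replicate 1 in iSPNs, at 154 CPM, was far from the other 3, which lay at 187.9 to 194.5 CPM. This is the mouse in which no nucleus was listed with 1 UMI of Scn4b, unlike the other HttQ175/+ mice, and the 1 that was 15 months old. In oligodendrocytes, Scn4b of HttQ175/+ replicate 3, at 50.2 CPM from 7 UMIs, was far below the other HttQ175/+ mice at 84.2 to 87.9 CPM. Groups of 4 mice were examined for each of the 8 genes in the 5 tested types, 40 in all, and chance flags about 1 group in 20.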

How the results depend on the processing

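Scn4b kept its direction in dSPNs, iSPNs and oligodendrocytes under every alternative run, and its call in dSPNs and iSPNs, with log2 changes of -2.21 to -1.75 and -1.84 to -1.66 as each mouse was left out. Scn9a kept its call in dSPNs as each mouse was left out (0.96 to 1.21) and missed it with single UMIs counted as 0 (1.10) and without both replicates 2 (0.89). In iSPNs, where it was not called, it passed with array weights (1.34), without WT replicate 2 and without both replicates 2. No paired analysis was possible because nothing in the labels ties an HttQ175/+ mouse to a WT mouse. Single UMIs counted as 0, leaving out both replicates 2, accepting types with 5 nuclei per mouse and the share with at least 2 UMIs at a nucleus's own depth were chosen after seeing the data. With single UMIs counted as 0 the pooled variance dominated the fits, so those p-values rest on the spread of all genes.

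Small changes near 0 turned round in several fits, none of them called. In dSPNs, Scn1a became 0.024 without scaling and 0.17 thinned, Scn2a1 0.016 without scaling and 0.095 without both replicates 2, and Scn2b -0.00887 with median-of-ratios scaling, -0.086 with summed UMIs, -0.30 thinned and -0.74 with single UMIs as 0. In iSPNs, Scn1a became 0.084 without scaling, 0.042 with single UMIs as 0 and 0.022 without both replicates 2. Scn2a1 became -0.00552 with median-of-ratios scaling, -0.035 with array weights and -0.000868 without doublets, and Scn3a -0.030 with summed UMIs. Scn8a became -0.16 thinned, and Scn3a, Scn2b and Scn3b became -0.31, -0.93 and -0.22 with single UMIs as 0. In astrocytes, Scn2a1 became 0.011 with a pseudocount of 5 UMIs, 0.21 with array weights and 0.13 without doublets. In oligodendrocytes, Scn2b became -0.044 with summed UMIs and -0.47 with single UMIs as 0. The cause was not tested. Without scaling the median change of all genes was 0.137 in dSPNs and 0.102 in iSPNs, so those values are to be read relative to it.

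Leaving out each mouse gave these ranges with a turn: in dSPNs Scn1a -0.22 to 0.035, Scn2a1 -0.19 to 0.00214 and Scn2b -0.19 to 0.20; in iSPNs Scn1a -0.11 to 0.083, Scn2a1 -0.077 to 0.094 (0.099 without both replicates 2), Scn3a -0.20 to 0.27 and Scn2b -0.28 to 0.34. Scn3a ranged from -0.48 to 0.21 in Sst interneurons and Scn2a1 from -0.31 to 0.52 in astrocytes. In oligodendrocytes Scn2a1 ranged from -0.025 to 0.37 and Scn2b from -0.56 to 0.58. Between dSPNs and iSPNs, Scn1a ranged from -0.028 to 0.11 and Scn3a from -0.066 to 0.18, and the difference of the genotype effects from -0.20 to 0.069 for Scn1a, -0.46 to 0.026 for Scn3a, -0.76 to 0.11 for Scn9a and -0.33 to 0.088 for Scn2b.

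Counts of called genes moved more. Thinning, which leaves fewer UMIs, gave 135 in dSPNs, 83 in iSPNs and 38 in oligodendrocytes. Single UMIs as 0 gave 252 in iSPNs, 8 in astrocytes and 60 in oligodendrocytes. Array weights gave 1 in Sst interneurons, 3 in astrocytes and 112 in oligodendrocytes, no filter 2 in Sst interneurons and 2 in oligodendrocytes, and summed UMIs 14 in oligodendrocytes. Leaving out each mouse gave 192 to 320 in dSPNs, 53 to 136 in iSPNs, 0 to 1 in Sst interneurons, 0 to 3 in astrocytes and 1 to 108 in oligodendrocytes. Between dSPNs and iSPNs it gave 36 to 62 in HttQ175/+, 69 to 114 in WT and 114 to 137 over both, and 0 to 1 for the interaction, which called 2 with a pseudocount of 5 UMIs. The difference in the Scn4b share was -27.5 percentage points in dSPNs at the nuclei's own depth, and -25.0 to -20.4 in dSPNs and -20.4 to -15.6 in iSPNs as each mouse was left out, where 6 mice cannot reach an exact p under 0.05. Some low genes could not be fitted in every setting, among them Scn9a in thinned iSPNs. Scn9a rests on few UMIs, with 22 in WT iSPNs and 4 in WT oligodendrocytes.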
